A study of Mus musculus with 6 samples.

Results

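The genes described here carry out mitosis and chromosome segregation: the cyclins and kinases that start mitosis, the passenger complex, the spindle checkpoint, kinetochore subunits, kinesins, spindle and midzone proteins, cytokinesis genes, and topoisomerase and condensin. They were chosen by name, as 43 gene symbols in 8 roles, and all 43 were found among the 24421 genes of the count table. The cells were mouse regulatory T cells (Tregs) of spleen and lymph nodes, CD4 T cells that depend on the transcription factor Foxp3 and restrain immune responses. In the 3 Srebp2cKO libraries (replicates 6, 7 and 8) the genotype is given as Srebp2FL/FL-Foxp3YFPCRE+/-, and in the 3 Srebp2WT libraries (replicates 1, 3 and 5) as Srebp2WT/WT-Foxp3YFPCRE+/+. Both groups thus carry a Cre recombinase with a yellow fluorescent protein at Foxp3, which limits deletion of the floxed gene for SREBP2 to cells that express Foxp3. Foxp3 is X-linked, so in a female with a Cre allele on only a single copy some Tregs would not express Cre. The Cre allele differs in dose between the groups, so its dose and the loss of SREBP2 cannot be told apart. The sources used here do not give age, strain, sex or sort gate. They also do not say whether each library came from its own animal, and the tests thus reflect the scatter of these 6 libraries alone, part of which may be technical.

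Cells that divide switch these genes on late in the cell cycle. In quiescent cells a repressor complex (DREAM) sits on many of their promoters, and in G2 the factors B-MYB and FOXM1 take over there, so that cyclin B with Cdk1 can start mitosis, condensin can compact chromosomes and kinesins and kinetochores can move them. Resting T cells divide rarely, and activated effector Tregs are the fraction of the Treg pool known to divide most. SREBP2 is the transcription factor that turns on cholesterol synthesis, and dividing cells need sterols for new membrane.

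None of the 43 mitosis genes passed the test between genotypes, although 39 of them had a negative log2 fold change (Srebp2cKO minus Srebp2WT). All 43 passed the filter on low counts. At a false discovery rate of 0.05 in edgeR's quasi-likelihood test, 0 were called, where 6.61% of the 11932 tested genes were (2.37% higher and 4.24% lower in Srebp2cKO). At an unadjusted p under 0.05 there were 9 (20.9%), 8 with a negative and 1 with a positive fold change, against 29.1% of all tested genes (14.3% negative and 14.8% positive). The 9 were Aurkb, Ccnb2, Aspm, Cdca8, Mki67, Prc1, Racgap1, Ncapd2 and, with the positive sign, Smc4. The median log2 fold change of the mitosis genes was -0.43, with a range of -0.97 to 0.52, and the median of all tested genes was -1.5e-04, where 50.0% had a negative sign. The estimates were wide: the median SE was 0.32 for the mitosis genes and 0.12 for all tested genes. For 29 of the mitosis genes the 95% interval reached below a log2 fold change of -1, so a fall of that size lay within the error, and for none did it reach above 1. If these genes did fall, fewer dividing cells and less transcript per dividing cell could not be told apart in these bulk libraries.

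**Figure D1:**
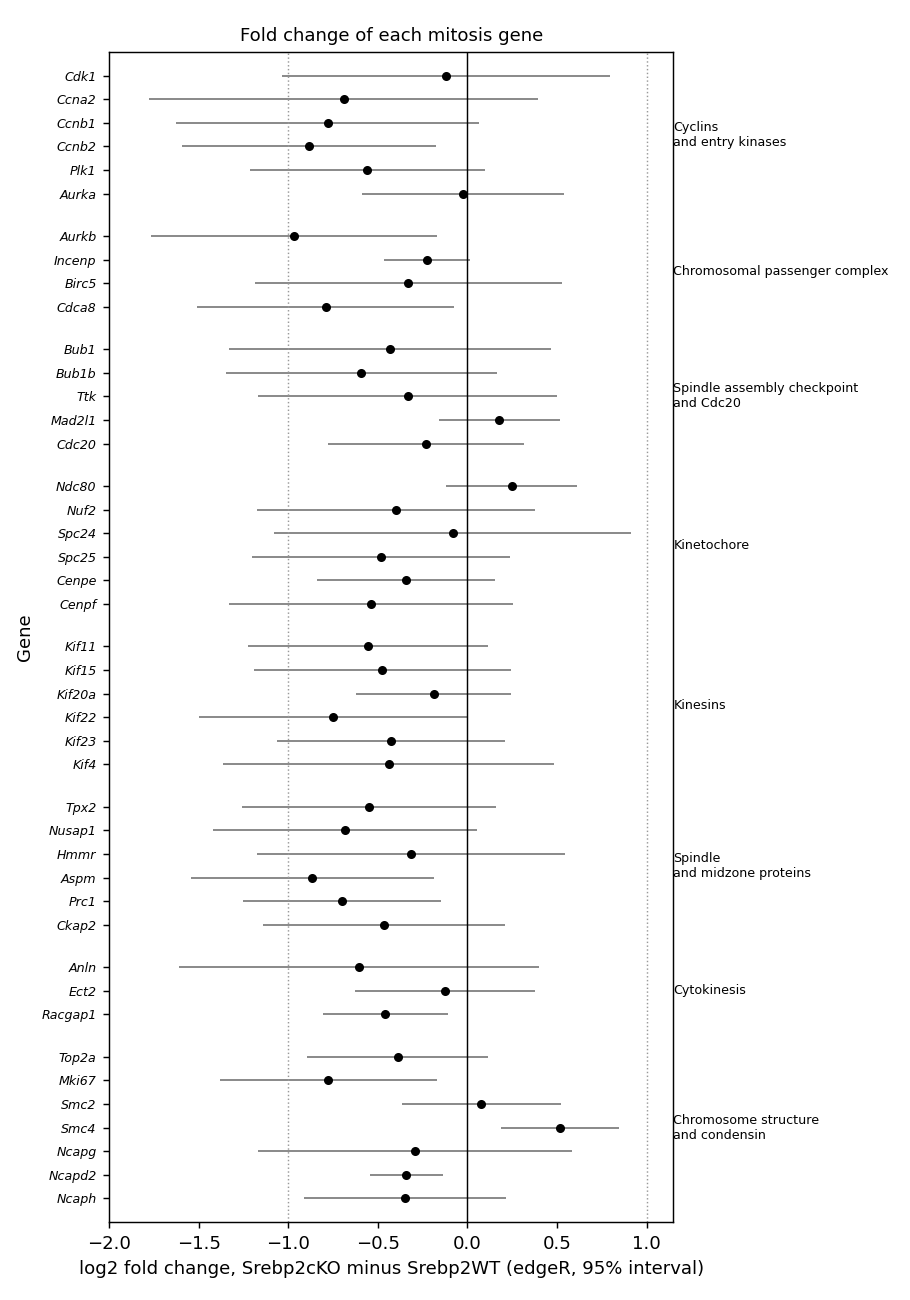
Log2 fold change (Srebp2cKO minus Srebp2WT, x axis) of each of the 43 mitosis genes (y axis, grouped by role), from edgeR on 3 libraries in each genotype, with bars for the 95% interval and dotted lines at -1 and 1. 39 points lie left of 0, and Mad2l1, Ndc80, Smc2 and Smc4 lie right of it.

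Other settings called 0 to 3 of the mitosis genes. No mitosis gene was called with RLE scaling (6.55% of all tested genes), upper-quartile scaling (6.42%), limma-voom (6.55%), robust dispersion (6.96%), a filter of 1 CPM in 3 libraries (7.04%) or a GC correction (5.72%). Ncapd2 alone was called with scaling to total counts (6.32%), Ncapd2 and Smc4 with DESeq2 (11.8%), and Mki67, Ncapd2 and Smc4 without a filter (7.39%). At a false discovery rate of 0.1 the called genes were Ncapd2, Racgap1 and Smc4 (15.9%). With a library left out, the called genes were Ncapd2 and Smc4 without Srebp2cKO replicate 6 (12.3%), Aspm without Srebp2cKO replicate 8 (3.63%), Mki67 without Srebp2WT replicate 3 (1.53%) and Smc4 without Srebp2WT replicate 5 (8.97%). None was called without Srebp2cKO replicate 7 (2.46%) or without Srebp2WT replicate 1 (1.39%).

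Total counts were 13918321 to 17249898 in the Srebp2cKO libraries and 14694290 to 15547538 in the Srebp2WT libraries. Levels are given as CPM, a gene's count relative to the library's total after TMM scaling. Srebf2, the gene for SREBP2, stood at 12.4 ± 1.56 CPM in Srebp2cKO and 185 ± 10.9 CPM in Srebp2WT (SD, n = 3 in each genotype here and below; log2 fold change -3.91, edgeR adjusted p = 1.5e-08). The Treg markers Foxp3, Cd4 and Cd3e averaged 435, 491 and 593 CPM in Srebp2cKO, against 454, 493 and 629.7 CPM in Srebp2WT. Of the other Treg markers, Ikzf2, which encodes Helios, averaged 1326 CPM in Srebp2cKO and 1591 CPM in Srebp2WT (edgeR adjusted p = 0.0645), Cd3g 405 CPM in Srebp2cKO and 399.9 CPM in Srebp2WT, and Il2ra, the IL-2 receptor CD25, rose, at 919.7 CPM in Srebp2cKO and 691 CPM in Srebp2WT (log2 fold change 0.41, edgeR adjusted p = 0.0101, and 0.0721 without Srebp2WT replicate 3). Most mitosis genes were scarce. Their mean level in Srebp2WT had a median of 4.60 CPM, against 27.1 CPM for all tested genes, and 22 of the 43 had under 100 counts in every library. The lowest count was 9, for Spc24 in Srebp2cKO replicate 7.

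The promoters of these genes share sequence that their selection by name did not use. A cell cycle gene homology region (CHR, searched here as TTTGAA or TTCGAA on both strands) is the element that DREAM and B-MYB bind, and CCAAT (also read as ATTGG) is the site of the factor NF-Y, which often lies upstream of it. RefSeq promoter windows (GRCm38.p6, 250 bases before to 50 after the transcript start) were found for 36 of the 43 genes. A CHR word was in 29 of them (80.6%) and CCAAT in 28 (77.8%), against 21.7% and 41.1% of all 27025 genes with a window. Both words were in 26 (72.2%), against 8.61% of all genes (7.52% of all windows of the same length). A CHR word began within 50 bases of the start in 26 (72.2%), against 6.12% of all genes. Birc5, Mad2l1, Ncaph, Nuf2 and Nusap1 held neither word in this window. A match is a description and not a bound site. Of the 4 genes with a positive fold change, Smc2 held both words, Ndc80 a CHR word alone and Mad2l1 neither, and no window was found for Smc4.

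Shown here, for each of the 8 roles, is the gene with the smallest p among those with both words, from 200 bases before to 30 after the start. These are Ccnb2 chr9:70421525-70421754 (minus strand), Cdca8 chr4:124936888-124937117 (minus strand), Bub1b chr2:118598011-118598240 (plus strand), Cenpf chr1:189688057-189688286 (minus strand), Kif22 chr7:127042391-127042620 (minus strand), Aspm chr1:139454573-139454802 (plus strand), Racgap1 chr15:99651627-99651856 (minus strand) and Ncapd2 chr6:125191557-125191786 (minus strand). Capitals mark CHR and CCAAT words, and in Cdca8 a CHR word and an ATTGG share 1 base. The CHR word shown for Bub1b is TTCGAA, and a second lies beyond the stretch, at position 41 counted from the transcript start.
Ccnb2: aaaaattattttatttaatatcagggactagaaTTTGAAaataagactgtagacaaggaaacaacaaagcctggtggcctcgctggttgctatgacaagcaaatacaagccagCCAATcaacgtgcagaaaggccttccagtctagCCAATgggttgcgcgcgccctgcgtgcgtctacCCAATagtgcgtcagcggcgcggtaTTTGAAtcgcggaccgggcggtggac
Cdca8: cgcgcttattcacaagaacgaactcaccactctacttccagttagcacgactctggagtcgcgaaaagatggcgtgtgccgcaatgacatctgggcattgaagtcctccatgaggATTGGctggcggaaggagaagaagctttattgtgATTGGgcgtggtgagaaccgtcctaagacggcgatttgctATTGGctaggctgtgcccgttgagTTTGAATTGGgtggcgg
Bub1b: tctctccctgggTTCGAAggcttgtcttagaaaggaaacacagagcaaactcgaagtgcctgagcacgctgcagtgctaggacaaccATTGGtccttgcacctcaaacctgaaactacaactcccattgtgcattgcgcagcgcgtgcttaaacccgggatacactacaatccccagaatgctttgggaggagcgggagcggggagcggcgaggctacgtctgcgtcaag
Cenpf: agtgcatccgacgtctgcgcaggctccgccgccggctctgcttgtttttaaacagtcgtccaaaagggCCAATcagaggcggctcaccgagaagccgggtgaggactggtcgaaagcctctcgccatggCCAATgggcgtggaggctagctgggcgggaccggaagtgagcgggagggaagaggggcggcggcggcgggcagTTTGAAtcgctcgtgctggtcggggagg
Kif22: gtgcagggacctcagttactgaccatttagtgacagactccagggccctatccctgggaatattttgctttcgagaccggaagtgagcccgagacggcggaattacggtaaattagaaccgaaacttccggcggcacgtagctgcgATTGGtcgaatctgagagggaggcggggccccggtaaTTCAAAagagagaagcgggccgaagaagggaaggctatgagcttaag
Aspm: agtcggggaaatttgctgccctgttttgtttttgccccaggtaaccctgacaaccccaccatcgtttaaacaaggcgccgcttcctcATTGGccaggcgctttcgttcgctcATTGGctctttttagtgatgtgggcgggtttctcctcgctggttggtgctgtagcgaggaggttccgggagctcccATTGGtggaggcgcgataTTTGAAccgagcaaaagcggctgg
Racgap1: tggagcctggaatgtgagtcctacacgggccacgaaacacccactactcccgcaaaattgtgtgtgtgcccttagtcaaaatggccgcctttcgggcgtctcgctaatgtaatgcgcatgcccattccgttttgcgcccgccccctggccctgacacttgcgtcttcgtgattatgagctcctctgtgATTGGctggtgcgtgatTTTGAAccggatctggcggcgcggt
Ncapd2: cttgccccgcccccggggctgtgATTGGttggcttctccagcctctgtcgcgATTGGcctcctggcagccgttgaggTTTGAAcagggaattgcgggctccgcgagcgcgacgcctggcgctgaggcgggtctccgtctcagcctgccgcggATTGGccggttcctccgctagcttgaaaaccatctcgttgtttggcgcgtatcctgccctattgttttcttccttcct
In Ccnb2, Cenpf, Aspm and Racgap1 a TTTGAA lies just after the start with CCAAT or ATTGG upstream, and in Kif22 a TTCAAA lies just before it. In Ncapd2 the TTTGAA lies further upstream, between ATTGG words.

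Within each genotype the libraries differed in a way that most mitosis genes shared. Of the Srebp2cKO libraries, replicate 8 was the highest for 31 of 43 genes (72.1%, against 26.5% of all tested genes). Of the Srebp2WT libraries, replicate 3 was the lowest for 39 (90.7%, against 28.3%). Across all 6, Srebp2cKO replicate 7 was the lowest for 24 genes (55.8%, against 29.1% of all tested genes). Srebp2WT replicate 1 was the highest of the 6 for 24 (55.8%, against 22.2%). The log2 difference of replicate 3 from the mean of the other Srebp2WT libraries had a median of -0.83 over the mitosis genes, against -0.0021 over all tested genes. That of replicate 8 from the mean of the other Srebp2cKO libraries had a median of 0.47, against -0.0053.

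Summed over the mitosis genes other than Smc4, levels were 291, 293 and 365 CPM in the Srebp2cKO libraries and 462, 301 and 459 CPM in the Srebp2WT libraries. Srebp2cKO replicate 8 lay above Srebp2WT replicate 3, so the genotypes overlapped, as they did for the sum of every role. All Srebp2cKO libraries lay below all Srebp2WT libraries for 3 genes, Ccnb2, Aspm and Ncapd2 (6.98%, where 15.5% of all tested genes did so), and above them for 1, Smc4 (2.33%, where 16.0% did). Single libraries moved the median log2 fold change of the mitosis genes, which was -0.43 with all libraries: it was -0.66 without Srebp2cKO replicate 8 and -0.65 without Srebp2WT replicate 3, but -0.29 without Srebp2cKO replicate 7 and -0.27 without Srebp2WT replicate 1.

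**Figure D2:**
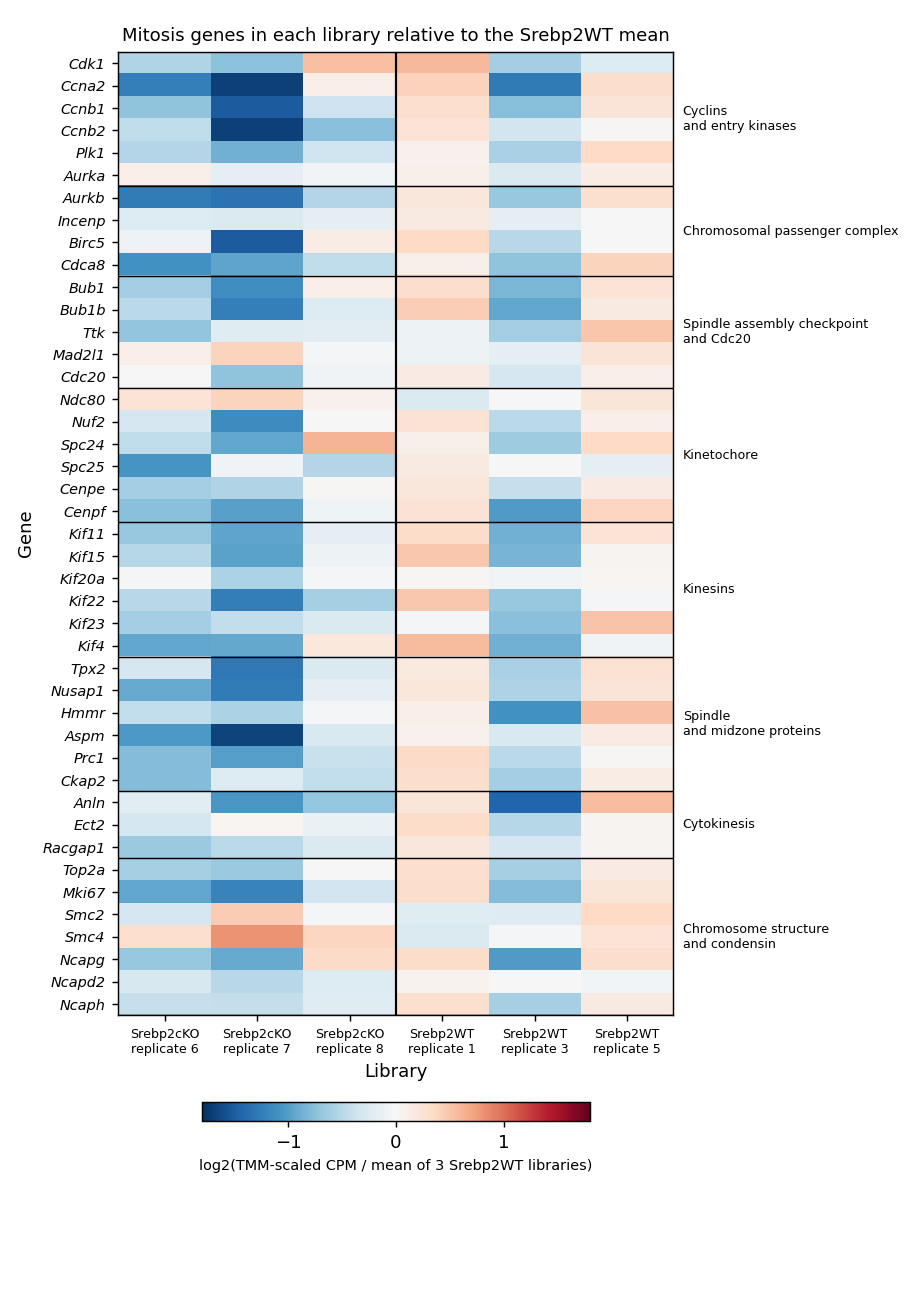
Level of each of the 43 mitosis genes (rows, grouped by role) in each library (columns), as log2 of the TMM-scaled CPM over the mean of the 3 Srebp2WT libraries (blue below, red above). The column of Srebp2WT replicate 3 is blue for most rows like the Srebp2cKO columns, and Srebp2cKO replicate 8 is paler than replicates 6 and 7.

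Cyclins and the kinases of mitotic entry had negative fold changes in 6 of 6 genes, with 0 called and a median log2 fold change of -0.63. Ccnb2, a B-type cyclin, had 2.72, 1.16 and 2.22 CPM in the Srebp2cKO libraries, against 4.45, 2.96 and 3.79 CPM in the Srebp2WT libraries (log2 fold change -0.88, SE 0.32, edgeR adjusted p = 0.108). All Srebp2WT libraries lay above all Srebp2cKO libraries, and Srebp2cKO replicate 7 was the lowest. Ccnb1, the B-type cyclin that activates Cdk1 for entry into mitosis, had 1.32, 0.774 and 1.69 CPM in the Srebp2cKO libraries, against 2.69, 1.29 and 2.57 CPM in the Srebp2WT libraries (log2 fold change -0.78, SE 0.38, edgeR adjusted p = 0.203). Its Srebp2WT replicate 3 fell among the Srebp2cKO values. Plk1, a kinase of mitotic entry and spindle assembly, had 2.28, 1.81 and 2.57 CPM in the Srebp2cKO libraries, against 3.45, 2.19 and 4.20 CPM in the Srebp2WT libraries (log2 fold change -0.56, SE 0.30, edgeR adjusted p = 0.235). For Plk1 too, Srebp2WT replicate 3 lay within the Srebp2cKO range. Cdk1, the kinase partner of these cyclins, had 1.54, 1.35 and 3.26 CPM in the Srebp2cKO libraries, against 3.38, 1.48 and 1.90 CPM in the Srebp2WT libraries (log2 fold change -0.12, 95% interval -1.03 to 0.79, edgeR adjusted p = 0.870). Cdk1 was high in 1 library of each genotype and lower in the other 4. The remaining genes were Ccna2, the cyclin of S phase and G2, with a log2 fold change of -0.69, and Aurka, a kinase of the spindle poles, with -0.025.

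The chromosomal passenger complex corrects faulty attachments of chromosomes to the spindle and then moves to the midzone for cytokinesis. All 4 of its genes had negative fold changes, with 0 called and a median of -0.56. Aurkb, its kinase, had 0.955, 0.903 and 1.57 CPM in the Srebp2cKO libraries, against 2.63, 1.42 and 2.78 CPM in the Srebp2WT libraries (log2 fold change -0.97, SE 0.36, edgeR adjusted p = 0.114), the most negative estimate of the 43 genes. Srebp2WT replicate 3 lay below Srebp2cKO replicate 8 for Aurkb, while Srebp2WT replicates 1 and 5 lay above every Srebp2cKO library. Cdca8, which encodes borealin, had 1.69, 1.87 and 2.62 CPM in the Srebp2cKO libraries, against 3.88, 2.19 and 4.74 CPM in the Srebp2WT libraries (log2 fold change -0.79, SE 0.32, edgeR adjusted p = 0.140). Srebp2WT replicate 3 again lay below Srebp2cKO replicate 8, and it lay above the other Srebp2cKO libraries. Incenp, the scaffold that activates Aurora B, had 22.3, 21.9 and 23.3 CPM in the Srebp2cKO libraries, against 29.3, 23.3 and 26.3 CPM in the Srebp2WT libraries (log2 fold change -0.23, SE 0.11, edgeR adjusted p = 0.196). Its values differed little between libraries, and the lowest Srebp2WT value met the highest Srebp2cKO value. Birc5, which encodes survivin, had 2.86, 1.10 and 3.38 CPM in the Srebp2cKO libraries, against 3.95, 2.19 and 3.11 CPM in the Srebp2WT libraries (log2 fold change -0.33, SE 0.39, edgeR adjusted p = 0.594). Srebp2cKO replicate 7 was low, and the other Srebp2cKO values lay within the Srebp2WT range.

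The spindle assembly checkpoint delays anaphase until chromosomes are attached, by holding back Cdc20, the activator of the anaphase-promoting complex (APC/C). Of these 5 genes, 4 had negative fold changes, 0 were called and the median was -0.33. Bub1b, which encodes the Cdc20 inhibitor BubR1, had 5.36, 3.23 and 6.35 CPM in the Srebp2cKO libraries, against 10.3, 3.93 and 8.39 CPM in the Srebp2WT libraries (log2 fold change -0.59, SE 0.34, edgeR adjusted p = 0.271). Bub1, a checkpoint kinase at the kinetochore, had 1.18, 0.839 and 1.98 CPM in the Srebp2cKO libraries, against 2.26, 1.03 and 2.17 CPM in the Srebp2WT libraries (log2 fold change -0.43, SE 0.41, edgeR adjusted p = 0.504). In both, Srebp2WT replicates 1 and 5 were the highest libraries and Srebp2WT replicate 3 lay among the Srebp2cKO values. Mad2l1, the Mad2 protein that binds Cdc20, went the other way in sign, at 14.5, 17.5 and 13.2 CPM in the Srebp2cKO libraries, against 12.5, 11.9 and 15.6 CPM in the Srebp2WT libraries (log2 fold change 0.18, SE 0.15, edgeR adjusted p = 0.462). Its genotypes overlapped, with Srebp2cKO replicate 7, low for most mitosis genes, as its highest library. Cdc20 and Ttk, the kinase Mps1 that starts checkpoint signalling, had log2 fold changes of -0.23 and -0.33.

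Kinetochore genes had negative fold changes in 5 of 6, with 0 called and a median of -0.37. Cenpe, a kinesin that carries chromosomes to the spindle equator, had 5.51, 5.81 and 8.57 CPM in the Srebp2cKO libraries, against 9.71, 6.31 and 9.34 CPM in the Srebp2WT libraries (log2 fold change -0.34, SE 0.23, edgeR adjusted p = 0.333). Srebp2WT replicate 3 lay below Srebp2cKO replicate 8 for Cenpe. Cenpf, a large protein of the outer kinetochore, had 3.23, 2.77 and 5.19 CPM in the Srebp2cKO libraries, against 6.52, 2.71 and 7.17 CPM in the Srebp2WT libraries (log2 fold change -0.54, SE 0.36, edgeR adjusted p = 0.340). For Cenpf, Srebp2WT replicate 3 was the lowest of all 6 libraries, while the other Srebp2WT libraries were the highest. The NDC80 complex, which grips microtubules, is built from Ndc80, Nuf2, Spc24 and Spc25. Ndc80 itself had 10.2, 11.4 and 9.15 CPM in the Srebp2cKO libraries, against 7.21, 8.63 and 10.1 CPM in the Srebp2WT libraries (log2 fold change 0.25, SE 0.16, edgeR adjusted p = 0.340), a positive estimate with overlapping genotypes. Its partners had log2 fold changes of -0.40 for Nuf2, -0.082 for Spc24 and -0.48 for Spc25.

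All 6 kinesin genes had negative fold changes, with 0 called and a median of -0.46. Kif22, a motor on chromosome arms, had 2.50, 1.48 and 2.33 CPM in the Srebp2cKO libraries, against 4.95, 2.19 and 3.45 CPM in the Srebp2WT libraries (log2 fold change -0.75, SE 0.34, edgeR adjusted p = 0.172). Its Srebp2WT replicate 3 lay between the Srebp2cKO values. Kif11, the motor that pushes spindle poles apart, had 6.17, 5.10 and 8.80 CPM in the Srebp2cKO libraries, against 12.5, 5.41 and 11.8 CPM in the Srebp2WT libraries (log2 fold change -0.56, SE 0.30, edgeR adjusted p = 0.247). Kif23, a motor of the central spindle needed for cytokinesis, had 3.97, 4.45 and 5.07 CPM in the Srebp2cKO libraries, against 5.95, 3.61 and 8.66 CPM in the Srebp2WT libraries (log2 fold change -0.43, SE 0.29, edgeR adjusted p = 0.347). For Kif11 and Kif23 the groups overlapped through a low Srebp2WT replicate 3. Kif15, Kif4 and Kif20a had log2 fold changes of -0.47, -0.44 and -0.19. Kif15 is a spindle motor, Kif4 a motor on chromosomes and midzone, and Kif20a a motor of the midzone.

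Spindle and midzone proteins had negative fold changes in 6 of 6 genes, with 0 called and a median of -0.61. Aspm, a protein of the spindle poles, had 3.01, 1.94 and 5.07 CPM in the Srebp2cKO libraries, against 6.52, 5.09 and 6.84 CPM in the Srebp2WT libraries (log2 fold change -0.87, SE 0.31, edgeR adjusted p = 0.104). The genotypes did not overlap for Aspm, and Srebp2cKO replicate 8 came close to the lowest Srebp2WT value. Without Srebp2cKO replicate 8 Aspm was called (log2 fold change -1.32, edgeR adjusted p = 0.0330). Prc1, which bundles microtubules of the midzone, had 3.97, 3.42 and 5.13 CPM in the Srebp2cKO libraries, against 8.65, 4.83 and 6.90 CPM in the Srebp2WT libraries (log2 fold change -0.70, SE 0.25, edgeR adjusted p = 0.105). Nusap1, a protein that binds and bundles spindle microtubules, had 1.98, 1.55 and 3.32 CPM in the Srebp2cKO libraries, against 4.26, 2.51 and 4.33 CPM in the Srebp2WT libraries (log2 fold change -0.68, SE 0.33, edgeR adjusted p = 0.201). For Prc1 and Nusap1, Srebp2WT replicate 3 lay below Srebp2cKO replicate 8 and above the other Srebp2cKO libraries. Tpx2, which activates Aurora A on the spindle, Ckap2, a spindle protein, and Hmmr, a microtubule-associated protein, had log2 fold changes of -0.55, -0.47 and -0.31.

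Of the cytokinesis genes, 3 of 3 had negative fold changes, with 0 called and a median of -0.46. Racgap1, a part of the centralspindlin complex with Kif23, had 11.8, 13.4 and 15.7 CPM in the Srebp2cKO libraries, against 21.7, 15.2 and 19.5 CPM in the Srebp2WT libraries (log2 fold change -0.46, SE 0.16, edgeR adjusted p = 0.0957). Srebp2WT replicate 3 was just below Srebp2cKO replicate 8, and Srebp2WT replicates 1 and 5 were above all Srebp2cKO libraries. Anln, which encodes anillin of the contractile ring, had 1.98, 1.10 and 1.40 CPM in the Srebp2cKO libraries, against 2.63, 0.837 and 3.32 CPM in the Srebp2WT libraries (log2 fold change -0.60, SE 0.45, edgeR adjusted p = 0.399). For Anln the lowest and the highest value of all libraries were both in Srebp2WT. Ect2, the exchange factor that activates RhoA for the furrow, had 5.14, 6.58 and 5.89 CPM in the Srebp2cKO libraries, against 8.08, 4.51 and 6.63 CPM in the Srebp2WT libraries (log2 fold change -0.12, SE 0.23, edgeR adjusted p = 0.743), with Srebp2WT replicate 3 as its lowest library.

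Among genes for chromosome structure, 5 of 7 had negative fold changes, with 0 called and a median of -0.34. Mki67, the protein Ki-67 that coats mitotic chromosomes and marks cycling cells (chromosome 7, 135689784 to 135716361, GRCm38), had 36.1, 29.9 and 54.0 CPM in the Srebp2cKO libraries, against 85.8, 40.0 and 80.3 CPM in the Srebp2WT libraries (log2 fold change -0.78, 95% interval -1.38 to -0.17, edgeR adjusted p = 0.102). Srebp2WT replicates 1 and 5 lay well above the rest, and Srebp2WT replicate 3 lay between Srebp2cKO replicates 6 and 8. Without Srebp2WT replicate 3 it was called (log2 fold change -1.05, edgeR adjusted p = 0.0409). Top2a, the topoisomerase that untangles sister chromatids, had 25.6, 24.5 and 38.7 CPM in the Srebp2cKO libraries, against 47.9, 25.6 and 43.0 CPM in the Srebp2WT libraries (log2 fold change -0.39, SE 0.23, edgeR adjusted p = 0.280). For Top2a, Srebp2WT replicate 3 and Srebp2cKO replicate 6 were nearly equal, and Srebp2WT replicates 1 and 5 were again the highest.

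Condensin I is built from the ATPases Smc2 and Smc4 and the subunits Ncapd2, Ncapg and Ncaph, and the signs of its genes were mixed. Ncapd2 had 38.0, 32.8 and 38.9 CPM in the Srebp2cKO libraries, against 48.4, 45.9 and 44.7 CPM in the Srebp2WT libraries (log2 fold change -0.34, SE 0.092, edgeR adjusted p = 0.0538). The genotypes did not overlap, the values within each were close, and its adjusted p was the smallest of the 43 genes. A small RNA gene, Scarna10, lies within Ncapd2 on the same strand and held up to 1213 counts in a library, so reads of one could be counted for the other. Smc4 (chromosome 3, 69004738 to 69034623, GRCm38) had 1604, 2261 and 1699 CPM in the Srebp2cKO libraries, against 1084, 1273 and 1529.7 CPM in the Srebp2WT libraries (log2 fold change 0.52, 95% interval 0.19 to 0.85, edgeR adjusted p = 0.0626). All Srebp2cKO libraries lay above all Srebp2WT libraries, the opposite of Ncapd2, and Smc4 was highest in Srebp2cKO replicate 7. The microRNA genes Mir15b and Mir16-2 lie within Smc4 on the same strand, with at most 41 and 34 counts in a library. Smc2 had 37.2, 63.2 and 44.8 CPM in the Srebp2cKO libraries, against 39.6, 39.3 and 59.1 CPM in the Srebp2WT libraries (log2 fold change 0.076, 95% interval -0.37 to 0.52, edgeR adjusted p = 0.828). Its groups overlapped, with the same library as the highest. Ncapg and Ncaph had log2 fold changes of -0.29 and -0.35. DESeq2 called Ncapd2 (adjusted p = 0.0301) and Smc4 (adjusted p = 0.00546).

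**Figure D3:**
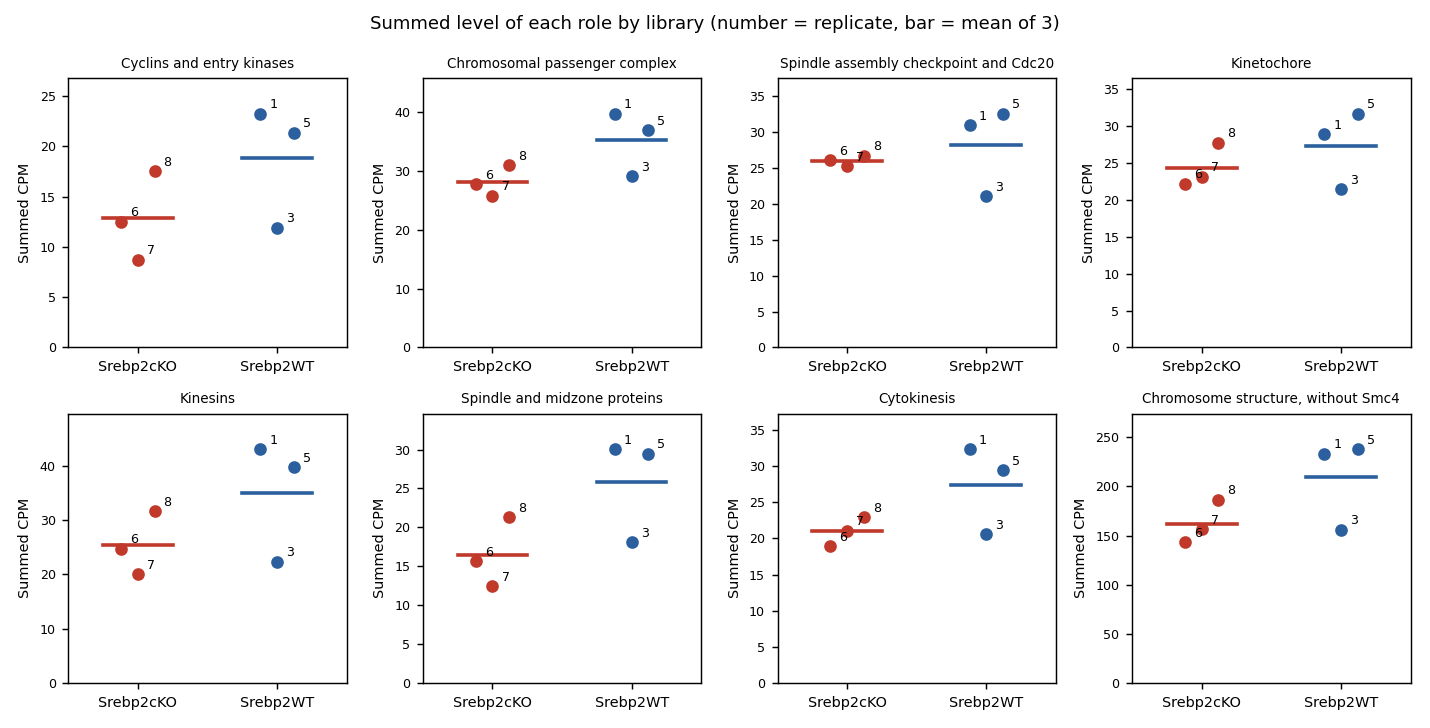
Summed TMM-scaled CPM (y axis, from 0) of the genes of each role in each library, with Srebp2cKO on the left and Srebp2WT on the right, 1 point per library numbered by replicate and a bar for the mean of 3; Smc4 is left out of its role. In all 8 panels Srebp2WT replicate 3 lies below the highest Srebp2cKO library, and Srebp2WT replicates 1 and 5 lie above all Srebp2cKO libraries.

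Per length, subunits of the same complex stood at different levels. Mean CPM per kb of the longest annotated transcript in Srebp2WT had a median of 1.21 over the mitosis genes, against 9.77 over tested genes with a known length. Smc4 stood at 429.8 in Srebp2cKO and 300.1 in Srebp2WT on this per-kb scale, and ranked 32 of 11932 tested genes by mean CPM in Srebp2WT. Its partners were far lower: Smc2 stood at 8.96 in Srebp2cKO and 8.51 in Srebp2WT. Ncaph stood at 1.34 in Srebp2cKO and 1.71 in Srebp2WT and Ncapg at 0.982 in Srebp2cKO and 1.21 in Srebp2WT CPM per kb. Within the passenger complex Incenp had 6.52 in Srebp2cKO and 7.62 in Srebp2WT, against 0.587 in Srebp2cKO and 1.17 in Srebp2WT for Aurkb, in the same unit. Within the NDC80 complex Ndc80 had 2.67 in Srebp2cKO and 2.25 in Srebp2WT, while Nuf2 had 0.386 in Srebp2cKO and 0.511 in Srebp2WT.

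The subunits Incenp, Ncapd2, Smc2, Smc4, Ndc80 and Mad2l1 showed less of the low level of Srebp2WT replicate 3 than most mitosis genes did. As log2 differences from the mean of the other Srebp2WT libraries, its levels were -0.25 (Incenp), -0.021 (Ncapd2), -0.33 (Smc2), -0.038 (Smc4), -0.0022 (Ndc80) and -0.25 (Mad2l1). The same difference was -1.05 for Mki67, -1.65 for Ccna2 and -1.83 for Anln, and it was below -0.5 for 30 of the 43 genes. These 6 genes were picked after their values were seen, and Kif20a (-0.078) and Spc25 (-0.0082) had small values as well. Aurka (-0.37) and Aspm (-0.39) lay close to Smc2. For Incenp, Smc2 and Mad2l1, Srebp2WT replicate 3 was still the lowest Srebp2WT library.

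**Figure D4:**
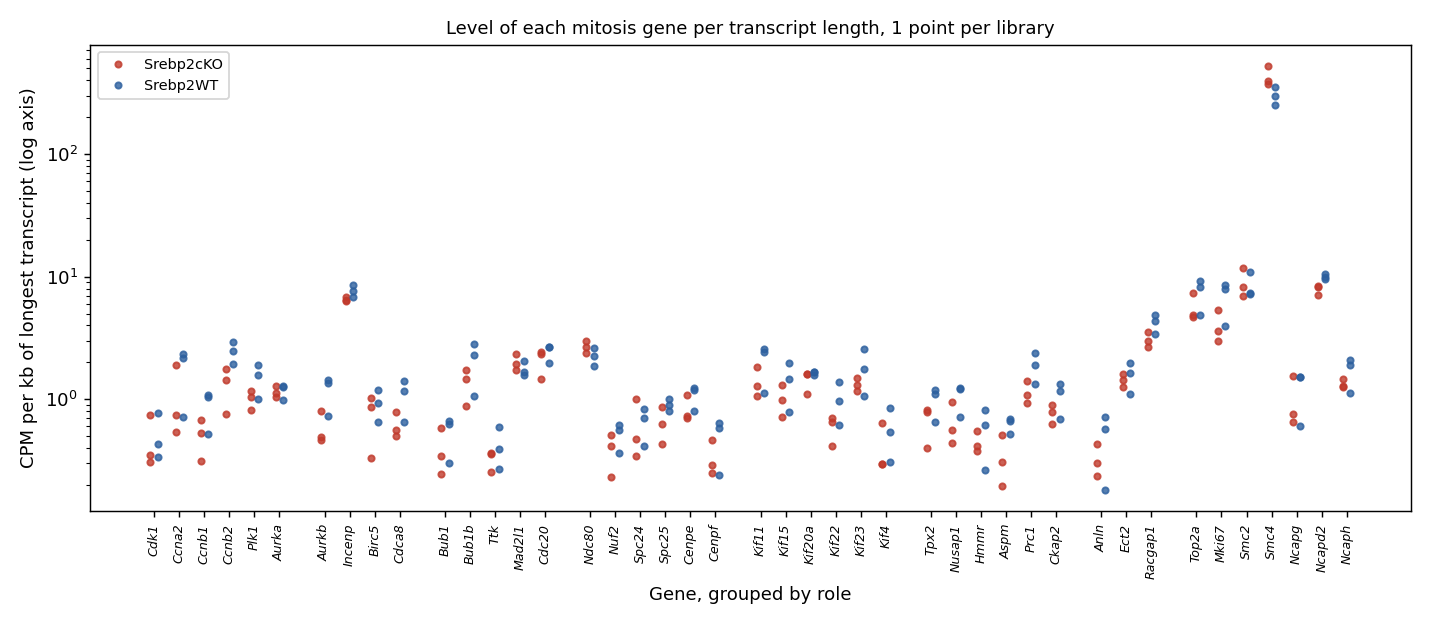
Level of each mitosis gene in each library as CPM per kb of its longest annotated transcript (y axis, log scale), grouped by role (x axis), with Srebp2cKO in red left of Srebp2WT in blue. Smc4 stands at 429.8 in Srebp2cKO and 300.1 in Srebp2WT (means of 3), far above every other gene.

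Transcript GC content moved with the fold changes of the whole series. Over 11431 tested genes the Spearman correlation of log2 fold change with GC was -0.50, and over the 43 mitosis genes it was -0.23, both across genes that share the same 6 libraries. The mitosis genes had a median GC of 45.3%, below the 49.5% of all tested genes. The 4 genes with a positive fold change had a median GC of 40.1%, against 46.3% for the others. With the GC trend removed from each library, 0 mitosis genes were called, 40 of 43 had a negative fold change and the median was -0.53, against -0.0032 over all tested genes. Smc2, Mad2l1 and Aurka changed sign, to -0.16, -0.048 and 0.012. Smc4 stood at 0.29 (edgeR adjusted p = 0.138), Ndc80 at 0.081 and Ncapd2 at -0.24 (edgeR adjusted p = 0.103) on the log2 scale after that correction.

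**Figure D5:**
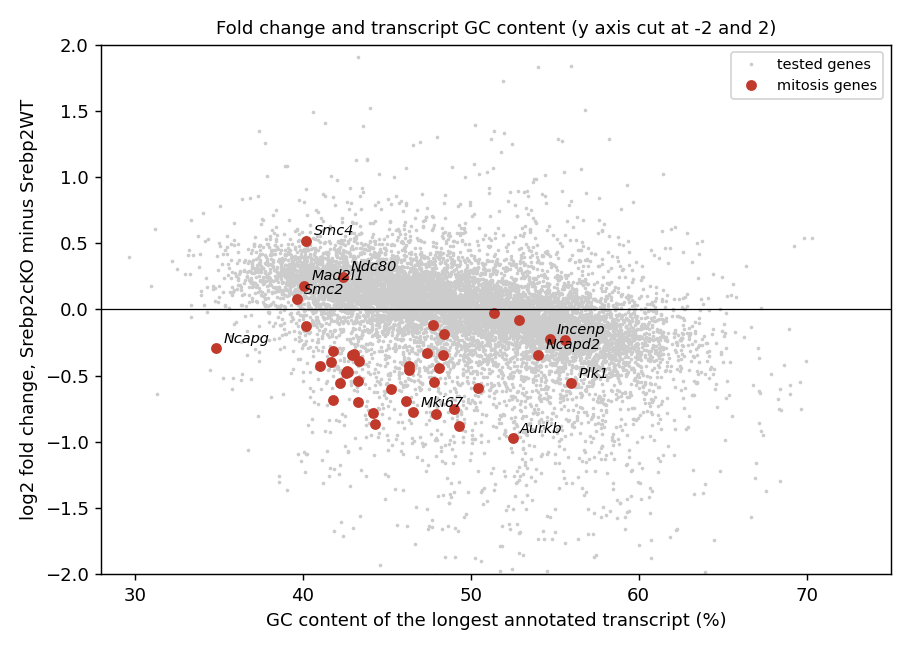
Log2 fold change (Srebp2cKO minus Srebp2WT, y axis) against GC content of the longest transcript in percent (x axis), with the 43 mitosis genes in red over all tested genes in grey; 70 genes lie outside the axes. 39 red points lie below 0 on the y axis, and Smc4, at 0.52, is the highest of the 43.

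Of 70 further genes of mitosis, 66 were tested, 2 fell and 0 rose, where 4.24% of all tested genes fell. Their median log2 fold change was -0.17, with 50 negative signs (all tested genes, 50.0%). Cdc25b, the phosphatase that helps to activate Cdk1, fell, with 42.4, 34.5 and 44.5 CPM in the Srebp2cKO libraries, against 64.5, 57.0 and 62.1 CPM in the Srebp2WT libraries (log2 fold change -0.60, SE 0.11, edgeR adjusted p = 0.0132). Cenpa, the histone H3 variant of centromeres, fell too, with 19.0, 21.0 and 21.5 CPM in the Srebp2cKO libraries, against 27.8, 25.6 and 27.3 CPM in the Srebp2WT libraries (log2 fold change -0.39, SE 0.098, edgeR adjusted p = 0.0436). For both, every Srebp2cKO library lay below every Srebp2WT library. Cdc25b missed the threshold without Srebp2WT replicate 1 (edgeR adjusted p = 0.0625), and Cenpa missed it whichever library was left out (edgeR adjusted p = 0.0610 to 0.177).

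Of 25 transcription factors, repressors and cell cycle regulators known to act on such promoters, 0 were called with edgeR (6.61% of all tested genes). DESeq2 called 1, Rb1 (11.8% of all tested genes), and limma-voom 0 (6.55%). An unadjusted p under 0.05 was seen for 5 (20.0%, 3 negative and 2 positive in sign), against 29.1% of all tested genes. The median log2 fold change of the 25 was -0.018. Foxm1, the activator of G2 and mitosis genes, named here after its values were seen, had 3.97, 4.26 and 3.79 CPM in the Srebp2cKO libraries, against 6.27, 4.19 and 7.58 CPM in the Srebp2WT libraries (log2 fold change -0.58, SE 0.23, edgeR adjusted p = 0.135). For Foxm1, Srebp2WT replicate 3 was again near the Srebp2cKO values. Mybl2, which encodes B-MYB, had a log2 fold change of -0.17 (SE 0.34, edgeR adjusted p = 0.767). Rb1, the retinoblastoma protein, had a log2 fold change of 0.33 (edgeR adjusted p = 0.0727), Rbl2, the p130 subunit of DREAM, -0.23 (edgeR adjusted p = 0.0903), and E2f2, an E2F activator, -0.25 (edgeR adjusted p = 0.105). With the GC trend removed, the log2 fold changes were 0.12 for Rb1 (edgeR adjusted p = 0.296), -0.29 for Rbl2 (edgeR adjusted p = 0.0343) and -0.083 for E2f2 (edgeR adjusted p = 0.624).

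Subunits of APC/C and cohesin, which also serve cells that do not divide, had mostly positive signs. Of 24 tested, 0 were called with edgeR (6.61% of all tested genes), 2 (Smc3 and Stag2) with DESeq2 (11.8%) and 0 with limma-voom (6.55%). Positive fold changes were seen for 18, where 50.0% of all tested genes had a negative sign. An unadjusted p under 0.05 was seen for 8 (33.3%), against 29.1% of all tested genes. The median log2 fold change was 0.20, which was 0.050 with the GC trend removed. The genes with the smallest p were the cohesin subunits Smc3 (0.32, edgeR adjusted p = 0.0875) and Stag2 (0.38, edgeR adjusted p = 0.101) and the cohesin regulator Pds5a (0.24, edgeR adjusted p = 0.104).

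DNA replication genes act in the S phase before mitosis. Of 44 tested, 1 fell and 0 rose, where 4.24% of all tested genes fell, 29 had negative signs (all tested genes, 50.0%), and the median log2 fold change was -0.16. The gene that passed was Tyms, thymidylate synthase, with 8.74, 9.61 and 8.28 CPM in the Srebp2cKO libraries, against 14.5, 11.8 and 14.1 CPM in the Srebp2WT libraries (log2 fold change -0.60, SE 0.14, edgeR adjusted p = 0.0332). Its genotypes did not overlap. With a library left out, Tyms passed without Srebp2cKO replicate 6 alone, and edgeR adjusted p reached 0.142 without Srebp2WT replicate 1. Summed over the list, levels were 1000.1, 1074 and 1113 CPM in the Srebp2cKO libraries and 1095, 1006 and 1173 CPM in the Srebp2WT libraries, and Srebp2WT replicate 3 and Srebp2cKO replicate 6 were the low libraries. No difference between this list and the mitosis genes was tested.

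Of 27 effector Treg genes, 12 fell and 0 rose, where 4.24% of all tested genes fell and 2.37% rose. The 3 with the smallest p were Klrg1, Pdcd1 and Tigit, receptors of activated T cells, with log2 fold changes of -2.93, -1.07 and -1.66. That list was chosen with earlier results of these data known. The summed level of effector Treg genes was 2123 to 2521 CPM in Srebp2cKO and 2608 to 3031 CPM in Srebp2WT, highest in Srebp2WT replicate 1. Summed over 10 B cell markers, levels were 26.0 to 34.8 CPM in Srebp2cKO and 56.4 to 77.4 CPM in Srebp2WT. Of these, 4 were tested and 3 fell (Cd74, Cd22 and Cd79b), Cd79b no longer with the GC trend removed (edgeR adjusted p = 0.0754) or with any 1 library other than Srebp2cKO replicate 6 left out (up to 0.188). Cd79a, the other tested, had a positive sign (log2 fold change 0.56, edgeR adjusted p = 0.308). It averaged 0.996 CPM in Srebp2cKO and 0.674 CPM in Srebp2WT, and its genotypes did not overlap. Ms4a1, Pax5, Cr2 and Ebf1 had at most 2 counts in any library and Fcer2a had 0. By library, these sums were 29.6, 26.0 and 34.8 CPM in the Srebp2cKO libraries and 77.4, 56.4 and 56.5 CPM in the Srebp2WT libraries.

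Summed over 10 myeloid markers, levels were 38.1 to 43.7 CPM in Srebp2cKO and 53.9 to 86.2 CPM in Srebp2WT. Of these, 3 were tested and 1 fell, Cybb, which made up most of the sum (33.1 CPM in Srebp2cKO and 60.7 CPM in Srebp2WT; edgeR adjusted p = 0.0216, and 0.0582 without Srebp2cKO replicate 7). Itgam and Cd68, the others tested, had log2 fold changes of 1.07 and 0.35 (edgeR adjusted p = 0.108 and 0.270), while S100a8 and S100a9 had 0 counts in every library. The 2 CD8 T cell markers summed to 8.77 to 10.5 CPM in Srebp2cKO and 6.97 to 7.39 CPM in Srebp2WT, while 6 NK cell markers summed to 3.85 to 7.61 CPM in Srebp2cKO and 4.51 to 5.62 CPM in Srebp2WT. Of the NK cell markers, 2 were tested: Klrb1c fell (log2 fold change -1.36, edgeR adjusted p = 0.0399, but up to 0.178 with any 1 library other than Srebp2WT replicate 5 left out), Eomes had a log2 fold change of 0.66 (edgeR adjusted p = 0.170), and the other 4 had 0 counts. Of 8 germinal centre and plasma cell markers, 2 were tested and 1, S1pr2, fell (edgeR adjusted p = 0.0345). Its edgeR adjusted p was up to 0.150 with Srebp2cKO replicate 7 or 8 or Srebp2WT replicate 1 or 3 left out. The 8 markers summed to 73.6 to 76.5 CPM in Srebp2cKO and 78.9 to 83.6 CPM in Srebp2WT. Most of these sums came from the other tested gene, which was not called. Of 9 erythroid markers, 1 was tested, Tfrc, which activated T cells also express (log2 fold change 0.38, edgeR adjusted p = 0.0692). Hbb-bt and Klf1 had 0 counts in every library, and Hbb-bs, Hba-a1 and Epor had at most 8, 2 and 6 counts in a library. The erythroid sum was 67.9 to 86.3 CPM in Srebp2cKO and 53.9 to 66.7 CPM in Srebp2WT. Of 9 stromal markers, Ccl19, Ccl21a and Cxcl13 had 0 counts, 2 were tested and 1, Pecam1, rose (log2 fold change 0.39, edgeR adjusted p = 0.0139, but up to 0.0815 without Srebp2WT replicate 1 or 3). Col1a1, the other tested, had a negative sign (log2 fold change -0.75, edgeR adjusted p = 0.234). All its Srebp2cKO libraries lay below all its Srebp2WT libraries. Cdh5, of the same list, had at most 1 count in a library. The part of these cells in the levels of the mitosis genes was not tested.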

How the data were processed

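Per the labels' protocols, RNA came from a Qiagen RNeasy kit and libraries were ribosome-depleted (KAPA RNA HyperPrep, RiboErase). The authors deposited raw counts per gene symbol for 6 libraries. HISAT2 2.2.1, mm10 and Cell Ranger are named in the submitters' processing notes, without their roles. No source used here gives the counting tool, annotation or strand setting, which leaves overlapping genes uncertain; 11 of the 43 mitosis genes overlap another gene of the table (GENCODE M21 spans), among them Ccna2, Cdca8, Kif20a, Prc1, Ncapg and Ncapd2.

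Columns were matched to samples by title. Within a genotype every pair of libraries differed by more than counting error (chi-square over its degrees of freedom 6.71 to 34.8), and each was used as 1 replicate. Of 24421 genes, 11932 were kept by filterByExpr, scaled with TMM and tested with edgeR 4.0.16 (quasi-likelihood, R 4.3.3), Srebp2cKO minus Srebp2WT, with Benjamini-Hochberg adjustment over all tested genes. SE is the log2 fold change over the square root of F. Some single marker genes are not reported here. The members, roles and lists were chosen with earlier results of these data known. The 3 genes of each role with the smallest p, all with a positive sign, and Mki67, Top2a, Cdk1, Ccnb1 and Birc5 in any case were given in full; of companion lists, genes that passed or the 3 with the smallest p; of effector Treg genes, the 3 with the smallest p; of marker lists, those that passed and others named beside them. GC and length are of the longest GENCODE M21 transcript (GRCm38). DESeq2 1.42.0, limma-voom (limma 3.58.1) and the other alternatives are given at the end.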

Additional observations from a re-analysis of the deposited data

How the results depend on the processing

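The count of called mitosis genes, 0 with edgeR's defaults, stayed at 0 with RLE scaling, upper-quartile scaling, limma-voom, robust dispersion, a filter of 1 CPM in 3 libraries and the GC correction. It was 1 with total counts alone (Ncapd2), 2 with DESeq2 (Ncapd2 and Smc4), 3 without a filter (Mki67, Ncapd2 and Smc4) and 3 at a false discovery rate of 0.1 (Ncapd2, Racgap1 and Smc4), and 0 to 2 when 1 library was left out. Without Srebp2cKO replicate 6 the 2 were Ncapd2 and Smc4, without Srebp2cKO replicate 8 the gene was Aspm, without Srebp2WT replicate 3 Mki67 and without Srebp2WT replicate 5 Smc4. Over all genes, 789 were called, 1404 with DESeq2, 1205 without a filter, 1893 at a false discovery rate of 0.1 and 167 to 1487 with 1 library left out. The median log2 fold change of the mitosis genes was -0.53 to -0.42 over the 10 other settings and -0.66 to -0.27 with 1 library left out. Scaling to total counts alone put the median of all tested genes at -0.033. It gave 184 higher and 570 lower calls, in place of 283 and 506. Of 688 log2 fold changes for the 43 mitosis genes under 16 alternatives, 18 changed sign. With the GC correction these were Mad2l1 (-0.048), Smc2 (-0.16) and Aurka (0.012). With 1 library left out, Cdk1 ranged over -0.64 to 0.30, Birc5 over -0.66 to 0.016, Ect2 over -0.32 to 0.083, Smc2 over -0.17 to 0.30, Aurka over -0.14 to 0.040, Spc24 over -0.67 to 0.20 and Hmmr over -0.65 to 0.039. The cause of these moves was not tested. For 29 other genes named, without Cd79a, Col1a1 and Mybl2, 4 values changed sign, 32 lost a call and 20 gained one. The sign changes were Foxp3 (to 0.063) and Cd4 (to 0.048) with the GC correction, and Cd4 (over -0.029 to 0.021) with 1 library left out. Srebf2 was called with a negative sign in all alternatives run. No paired analysis was possible because the genotypes share no replicate number. Of the 43 genes, 22 had under 100 counts in every library, and the part of depth in the errors of these scarce genes was not tested.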
